A study of Mus musculus with 18 samples.

Results

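A set of 10 genes of neuroimmune signalling was followed in mouse dorsal root ganglia (DRG), the clusters of sensory neuron cell bodies beside the spinal cord. They were chosen by gene symbol, the interleukins Il18, Il33 and Il34, the chemokines Ccl2, Cxcl12 and Cx3cl1, the growth factors Csf1 and Tgfb1, the toll-like receptor Tlr4 and its adaptor Myd88, and they make up 10 of the 22021 genes listed. All groups carried Nav1.8-Cre and Rosa26fsTRAP on a C57BL/6J background, so that eGFP-L10a, a tagged ribosomal protein, was made in neurons in which the promoter of a nociceptor sodium channel, Nav1.8, drives Cre. These are mostly nociceptors, with some myelinated neurons. Male and female littermates were 8 to 12 weeks old. Translating ribosome affinity purification (TRAP) pulled down the tagged ribosomes with their mRNA, and a library of the pulldown was sequenced from the transcripts' 3′ ends beside an input library of the same homogenate. Biosamples 1 to 4 were normal and biosamples 5 to 8 came from paclitaxel-treated mice, and each gave both fractions, which makes 4 groups of 4. Paclitaxel, a chemotherapy drug that stabilises microtubules and can cause painful neuropathy, was injected intraperitoneally at 4 mg/kg, 4 times over 8 days, 16 mg/kg in all. The labels do not say whether normal animals received vehicle or how many animals made a biosample, so the p-values measure the spread between these biosamples. Biosample 7 came as 2 subsamples, which were sequenced separately and averaged, so that 18 libraries gave 16.

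IL-18 and IL-33 belong to the IL-1 family: IL-18 is made as a precursor that caspase-1 cleaves, and IL-33 is a nuclear protein released when cells are damaged. CCL2, CXCL12 and CX3CL1 attract leukocytes through CCR2, CXCR4 and CX3CR1, while CSF1 and IL-34 are alternative ligands of CSF1R, the receptor that macrophages and microglia depend on. TLR4 senses bacterial lipopolysaccharide and molecules from damaged cells and signals through MyD88, as the IL-18 and IL-33 receptors also do, and in the mouse paclitaxel itself has been described as a TLR4 agonist. In the ganglion these signals pass between neurons, satellite glia, macrophages and vessels.

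The promoters of the 4 genes with the largest differences between paclitaxel and normal input are shown as RefSeq gives them, from 250 bases before to 50 bases after the annotated start, read on the gene's own strand of GRCm38.p6. Il18 lies at chr9:50554450-50554749 on the plus strand, Il33 at chr19:29924863-29925162 on the plus strand, Csf1 at chr3:107760420-107760719 on the minus strand and Cxcl12 at chr6:117168285-117168584 on the plus strand. RefSeq promoters were found for 7 of the 10 genes, and Il33 had a further start that is not shown. Capitals mark matches, on either strand, to the NF-kB motif (GGG, any 3 bases, TTCC), the AP-1 motif (TGANTCA), the interferon response motif (GAAA, any 2 bases, GAAA) or TATAAA.
Il18: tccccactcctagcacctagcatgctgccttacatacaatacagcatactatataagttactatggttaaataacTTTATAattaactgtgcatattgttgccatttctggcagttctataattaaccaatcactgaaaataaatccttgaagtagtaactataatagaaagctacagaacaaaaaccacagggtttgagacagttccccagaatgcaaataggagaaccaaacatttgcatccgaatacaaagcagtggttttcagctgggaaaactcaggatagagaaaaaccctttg
Il33: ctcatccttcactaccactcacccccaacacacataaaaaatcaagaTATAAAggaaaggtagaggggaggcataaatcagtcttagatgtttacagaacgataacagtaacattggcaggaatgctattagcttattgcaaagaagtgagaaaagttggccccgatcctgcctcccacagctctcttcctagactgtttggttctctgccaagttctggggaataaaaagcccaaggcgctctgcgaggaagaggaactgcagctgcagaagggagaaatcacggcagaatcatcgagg
Csf1: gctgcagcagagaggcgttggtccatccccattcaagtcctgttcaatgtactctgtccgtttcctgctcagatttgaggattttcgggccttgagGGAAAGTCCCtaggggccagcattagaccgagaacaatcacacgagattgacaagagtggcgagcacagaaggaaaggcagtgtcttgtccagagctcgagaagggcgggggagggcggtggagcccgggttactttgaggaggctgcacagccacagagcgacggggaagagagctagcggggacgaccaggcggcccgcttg
Cxcl12: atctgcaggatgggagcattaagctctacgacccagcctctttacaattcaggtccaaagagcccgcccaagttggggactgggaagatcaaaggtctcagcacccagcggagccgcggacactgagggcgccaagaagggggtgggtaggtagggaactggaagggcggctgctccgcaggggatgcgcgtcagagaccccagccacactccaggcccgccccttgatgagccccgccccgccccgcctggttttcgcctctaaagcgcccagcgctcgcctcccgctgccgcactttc
The Csf1 window held 1 match to the NF-kB letters, GGAAAGTCCC, which 5.79% of 16104 promoters of this length hold. In the Il18 and Il33 windows only TATAAA was matched, a run that 12.8% of promoters hold, and no motif was matched in the Cxcl12 window. AP-1 letters occur in 7.15% and the interferon response letters in 3.38% of promoters.

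All 10 genes were detected in the whole ganglion, and their detection in the pulldown was incomplete. In the 9 input libraries each of the 10 genes had at least 3 reads, so that 90 of 90 values reached this floor. In the 9 TRAP libraries 64 of 90 values reached it and 15 were at 0 reads. Il34 was the only one of the 10 with at least 3 reads in all 9 TRAP libraries. Cxcl12 and Myd88 reached 3 reads in 8 of 9, Csf1 and Cx3cl1 in 7, Il18 and Ccl2 in 6, Tgfb1 and Tlr4 in 5 and Il33 in 3. Il33 was at 0 reads in 4 TRAP libraries, Tlr4 in 3, and Il18, Ccl2 and Tgfb1 in 2 each. A gene at 0 reads could still be present at up to 0.0917 to 0.502 CPM, depending on the TRAP library (CPM gives reads scaled to one common library total), a limit that covers counting error only.

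Detection varied between pulldowns of the same group. Normal TRAP libraries held 6, 8, 10 and 8 of the 10 genes at 3 reads or more in biosamples 1 to 4. Paclitaxel TRAP held 6 in biosample 5, 3 in biosample 6, 4 and 9 in the subsamples of biosample 7 and 10 in biosample 8. The same libraries differed in how many of all genes reached 1 CPM, from 8081 in the first subsample of biosample 7 to 13228 in biosample 8, against 13152 to 14043 in the inputs. Their reads ranged from 5972327 to 32713515, and those of the inputs from 4266007 to 14478012. The part that this difference in complexity has in the TRAP values below was not tested beyond the values given without the 4 biosamples with the fewest TRAP genes.

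**Figure D1:**
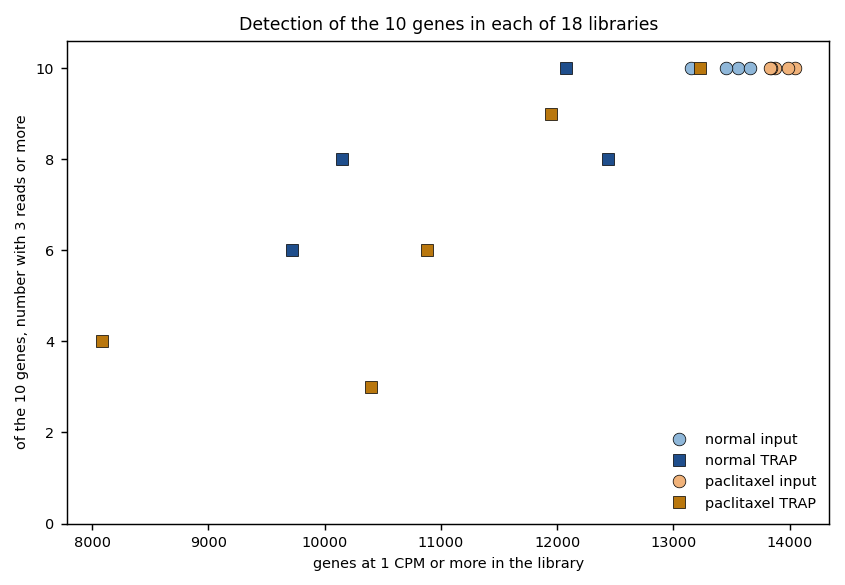
Number of the 10 genes with at least 3 reads (vertical axis) against the number of all genes at 1 CPM or more (horizontal axis), 1 point per library, with circles for input and squares for TRAP. All inputs stand at 10 genes, while TRAP libraries spread from 3 to 10.

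Scn10a, which encodes Nav1.8, the channel whose promoter drives the tag, was higher in TRAP than in input in 8 of 8 biosamples, by 0.946 ± 0.559 (SD, n = 8) on the log2(CPM + 1) scale (exact two-sided sign-flip test, p = 0.00781, the smallest that 8 pairs allow). The gain was uneven: it was only 0.09 and 0.05 in normal biosamples 2 and 4, against 1.07 to 1.45 in the others. Summed nociceptor markers stood at 3982.1 to 5971.8 CPM in normal input and 6861.8 to 9246.8 CPM in normal TRAP, and at 3735.8 to 4945.0 and 6638.8 to 8242.4 CPM after paclitaxel. The gain of the normal sum was carried by Prph, the gene of the intermediate filament peripherin, which averaged 1935.1 CPM in normal input against 5061.0 CPM in normal TRAP. By limma 2 of the 10 nociceptor markers were higher and 2 lower in normal TRAP, the latter Calca, a neuropeptide gene (-0.94, adjusted p = 0.000528), and Trpv1, the capsaicin receptor (-1.14, adjusted p = 0.0237). After paclitaxel 6 were higher and 0 lower, and over both treatments 5 were higher and 0 lower, as were 5 and 3 of the 10 pan-neuronal markers. RNA of other cells remained in the pulldowns: the 12 macrophage markers summed to 102.3 to 241.9 CPM in normal input and 54.8 to 92.6 CPM in normal TRAP, and to 223.7 to 303.0 and 45.7 to 100.1 CPM after paclitaxel. The 8 satellite glia markers summed to 771.5 to 1804.5 and 282.5 to 489.8 CPM in the normal groups and to 1177.0 to 1482.8 and 443.2 to 513.4 CPM after paclitaxel. Of the macrophage, satellite glia, Schwann cell, fibroblast and endothelial markers, 0 were at 0 reads in all TRAP libraries of a group. The summed markers of each of these cell types were thus still found in the pulldown, but some single markers were close to absent. Adgre1, Cd68 and Tyrobp averaged 0.01, 0.0175 and 0.0525 CPM in normal TRAP, against 2.28, 0.302 and 0.508 CPM in normal input. Of the 12 macrophage markers 7 reached 1 CPM in at least 4 TRAP libraries.

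**Figure D2:**
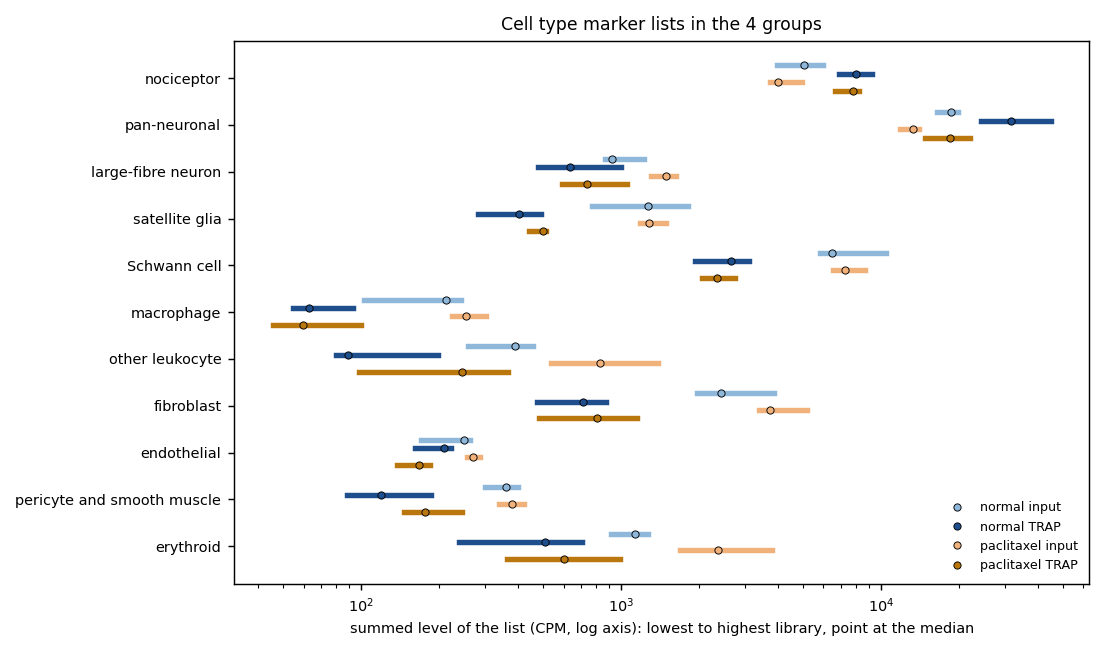
Summed CPM of 11 cell type marker lists (log axis), drawn as the range over 4 biosamples with a point at the median, for the 4 groups. Nociceptor and pan-neuronal sums are higher in TRAP than in input, and the glial, macrophage, leukocyte, fibroblast, mural and erythroid sums are lower.

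Averaged over both treatments, 9 of the 10 genes were lower in TRAP than in input, from Il33 at -2.59 to Tlr4 at -1.21 on the log2(CPM + 1) scale, and Il34 was the exception at -0.07. The tests were made with limma, biosample as a block, and Benjamini-Hochberg adjustment over all 14214 tested genes, with 0.05 as the threshold. A loss relative to input was common: 41.6% of all tested genes were lower and 7.64% higher in the same comparison, and the median of all genes was -0.62, against -1.52 over the 10. All 10 passed the filter of at least 1 CPM in 4 libraries through their inputs, and 7 of them also reached it in the TRAP libraries alone, as did 83.4% of tested genes, so that the count of 9 of 10 describes these genes and sets them apart from no others. The median of all genes depended on scaling, at -0.32 with median-ratio scaling, 0.03 with quantile normalization and -0.45 with edgeR, and so did the split of calls: 5907 genes were lower and 1086 higher as tested, 3660 and 2018 with median-ratio scaling, 2470 and 2475 with quantile normalization, and 2234 and 1966 with edgeR. Il18, Il33 and Cxcl12 passed in each of 22 alternative analyses and Cx3cl1 in 21, but edgeR on the recovered reads called 4 of the 10. Of the 22, 1 was the same fit at a threshold of 0.1, which a gene that passed at 0.05 cannot fail. This holds for the later counts out of 22 as well. In bulk libraries fewer cells of a type and less RNA per cell cannot be told apart.

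In normal biosamples alone, 3 of the 10 genes were lower in TRAP, Il18, Il33 and Cxcl12, where 24.7% of all tested genes were lower and 5.09% higher. After paclitaxel 7 were lower, all but Il34, Tlr4 and Myd88, against 23.0% of all genes lower and 4.92% higher. Both contrasts rested on 4 pairs, and the counts moved with single libraries: 2 of the 10 were lower after paclitaxel without biosample 6, 4 without biosample 5 or 7, and 1 in the normal groups without biosample 1. The share of all tested genes that was lower moved too, to 11.8%, 12.3% and 14.5% after paclitaxel without biosample 6, 5 or 7 and to 13.1% in the normal groups without biosample 1. Scaling moved the split of calls here as well. In the normal groups 724 genes were higher and 3509 lower as tested, 1406 and 1712 with median-ratio scaling, 1307 and 1388 with quantile normalization, and 1252 and 612 with edgeR. After paclitaxel 699 were higher and 3264 lower as tested, 1265 and 1952 with median-ratio scaling, 1354 and 1492 with quantile normalization, and 1148 and 767 with edgeR. The difference between the treatments was tested directly and passed for 0 of the 10 genes (limma adjusted p from 0.385 to 0.997), with 1 of them, Cx3cl1, at an unadjusted p under 0.05. The share of all tested genes at that unadjusted p was not counted. At the adjusted threshold this test of the difference called 0.190% of all genes with limma and 0 genes with edgeR.

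**Figure D3:**
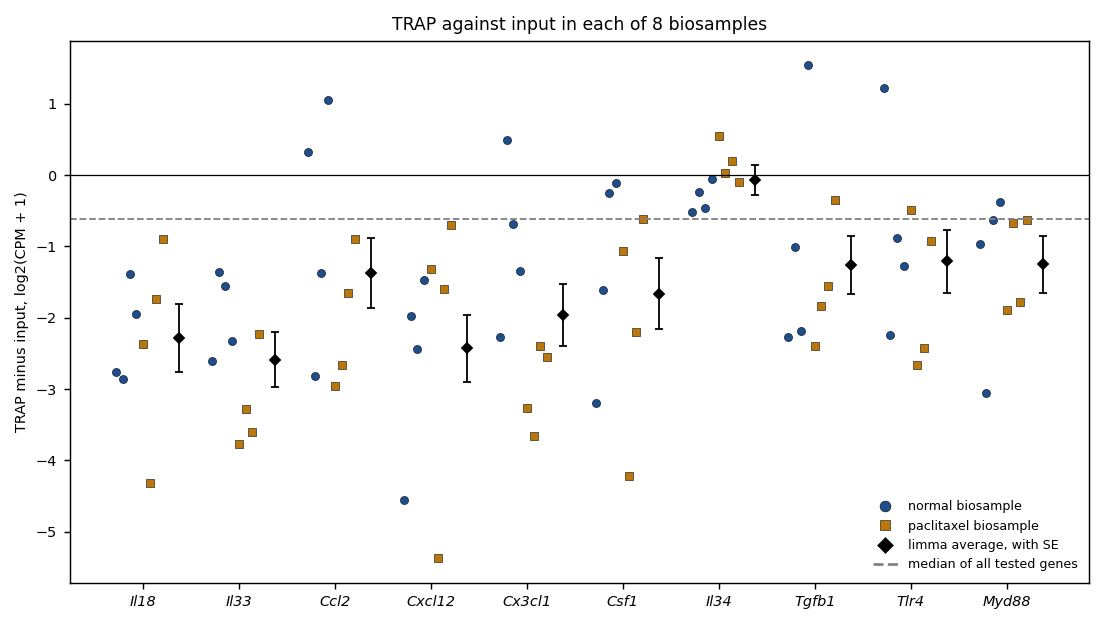
TRAP minus input on the log2(CPM + 1) scale for each gene in each of 8 biosamples (circles, normal; squares, paclitaxel), with the limma average and its standard error (diamonds) and the median of all tested genes (dashed line). Il34 lies around 0, and Il18, Il33, Cxcl12, Csf1 and Myd88 lie below 0 in all 8 biosamples. The share of all tested genes that lie below 0 in all 8 was not counted.

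Il18 (chr9:50554827-50581840, plus strand of GRCm38, as for the coordinates that follow) was a transcript of the whole ganglion that was scarce in the pulldown and higher after paclitaxel. Normal input held 5.77, 8.94, 5.53 and 7.97 CPM in biosamples 1 to 4, and normal TRAP held 0, 0.37, 1.5 and 1.34 CPM. Paclitaxel input held 21.45, 19.40, 19.47 and 25.70 CPM in biosamples 5 to 8. All 4 paclitaxel inputs lay above all 4 normal inputs, and each TRAP library lay below its own input. How many of all tested genes separate in such ways was not counted, here or for the genes and marker sums that follow. A full separation therefore sets none of them apart from other genes. Il18 in TRAP after paclitaxel was uneven, at 3.34, 0.03, 5.19 and 13.33 CPM. The value of biosample 7 averaged subsamples at 0 and 10.37 CPM. The TRAP-to-input difference of Il18 was -2.28 ± 0.474 (SE; limma adjusted p = 0.000545), a 4.86-fold lower level on that scale. The TRAP subsamples of biosample 7 were also far apart for Csf1 (0.09 and 10.96 CPM), Ccl2 (0.09 and 4.98), Myd88 (0.19 and 11.87) and Cxcl12 (7.03 and 28.63). Il34 held 70.59 and 67.64 CPM there, and Il33, Cx3cl1, Tgfb1 and Tlr4 no more than 1.49 CPM in either.

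Il18 was also the only one of the 10 genes to pass between treatments. In input it rose by 1.5 ± 0.25 (SE, log2), 2.82-fold (limma adjusted p = 0.0167), from 7.05 ± 1.67 to 21.5 ± 2.95 CPM (SD, n = 4 each). In that comparison 1.46% of all tested genes were higher and 0.183% lower, with a median of 0.14, so that 1 of 10 is read against this background. The call was lost without biosample 1, 5, 7 or 8, with biosamples 3, 4, 7 and 8 alone and without the filter on low values, at limma adjusted p from 0.0565 to 0.0789. The size of the difference stayed between 1.14 and 1.62 over 22 alternatives. Among these, the settings of filter, replicate block, intensity trend and threshold cannot change it. With edgeR the adjusted p was 0.0429. In TRAP, Il18 differed by 1.41 ± 0.825 (SE; limma adjusted p = 0.42). The Il18 gene overlaps Bco2 and Tex12 on the other strand, and the counting is not stated to use strand. Bco2 reached at most 0.97 CPM in an input, and Tex12 was at 0 in all libraries.

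Other measures moved with Il18 in the paclitaxel inputs. The leukocyte markers summed to 257.4 to 456.8 CPM in normal input and 535.5 to 1388.7 CPM in paclitaxel input, the erythroid markers to 915.8 to 1269.1 and 1684.2 to 3803.0 CPM, and the pan-neuronal markers to 16421.2 to 19818.6 and 11809.1 to 13987.1 CPM, and the large-fibre neuron markers to 868.8 to 1229.4 and 1298.9 to 1627.1 CPM, with no overlap in any of these 4. The leukocyte sum was nearly all S100a8, with means of 170.7 and 515.7 CPM, and S100a9, with 189.5 and 357.9 CPM (limma adjusted p = 0.144). Ptprc, the common leukocyte antigen, stood at 7.28 and 11.5 CPM (adjusted p = 0.233), and 1 of the 5 tested markers passed. Of the large-fibre markers 0 of 8 passed. Macrophage and fibroblast sums were higher at the median but overlapped, at 212.6 and 252.1 CPM for macrophages and 2411.9 and 3723.7 CPM for fibroblasts. Of the lists' genes, S100a8 (a neutrophil alarmin, 1.5, adjusted p = 0.0237), Lyz2 (macrophage lysozyme, 1.64, 0.0318), Hba-a1 (a haemoglobin chain, 2.51, 0.00616), Apod (a lipid carrier of fibroblasts, 1.79, 0.0226) and Fabp7 (a lipid-binding protein of satellite glia, 1.99, 0.0226) rose in input by limma. Uchl1, an abundant neuronal ubiquitin hydrolase, fell by 1.14 (adjusted p = 0.0482), the 1 of 10 pan-neuronal markers to pass, while Nefl (0.29) and Stmn2 (0.32) were higher without passing. The fall of the pan-neuronal sum was carried by Uchl1, from a mean of 6020.8 to 2715.2 CPM, and Tubb3, from 4157.7 to 2359.9 CPM. Without biosample 1, or without the filter, 0 of all genes passed in input with limma, these and the other input calls included. The part of these cell markers in the Il18 result was not tested.

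**Figure D4:**
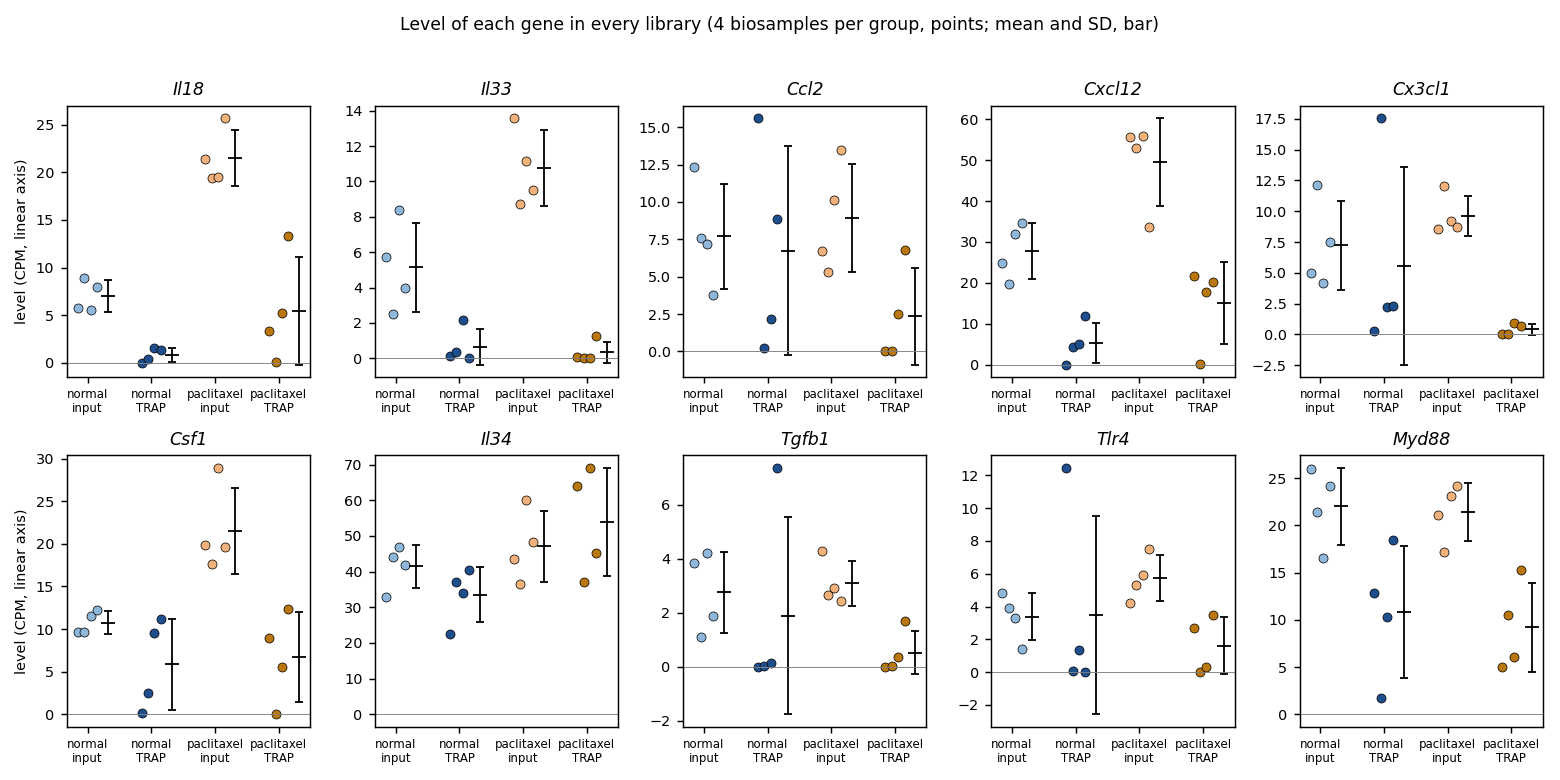
Level of each gene in CPM (linear axis, a separate scale for each panel) in the 4 groups, with 1 point per biosample and the mean with its SD beside the points. The 4 Il18 points of paclitaxel input, at 19.4 to 25.7 CPM, lie above the normal inputs at 5.53 to 8.94 CPM.

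Il33 (chr19:29925114-29960718, plus strand) showed the scarcest detection in TRAP. In normal input its level was 5.70, 2.51, 8.36 and 3.98 CPM, and in normal TRAP 0.10, 0.37, 2.17 and 0 CPM. Paclitaxel inputs held 13.59, 8.73, 11.15 and 9.49 CPM. Each of them was above the highest normal input of 8.36 CPM. In TRAP after paclitaxel Il33 was at 0.07, 0, 0 and 1.23 CPM, below every input. The averaged difference of TRAP from input was -2.59 ± 0.387 (SE; limma adjusted p = 1.8e-05), and the input difference between treatments was 1.01 ± 0.319 (SE, log2), which did not pass (limma adjusted p = 0.115).

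Cxcl12 (chr6:117168535-117181367, plus strand), a chemokine of stromal and endothelial cells, was the chemokine of the 3 with reads in all TRAP libraries. Its normal inputs stood at 24.98, 19.77, 31.84 and 34.69 CPM and its normal TRAP libraries at 0.10, 4.29, 5.06 and 11.89 CPM. In paclitaxel input it was at 55.68, 53.03, 55.88 and 33.66 CPM. The last of these, biosample 8, lay within the normal range and the other 3 above it. Paclitaxel TRAP held 21.82, 0.31, 17.83 and 20.33 CPM, with biosample 6 far below the rest. TRAP differed from input by -2.43 ± 0.464 (SE, log2; limma adjusted p = 0.00025), and neither the input difference of 0.81 ± 0.245 (adjusted p = 0.103) nor the TRAP difference of 1.18 ± 1.12 (adjusted p = 0.647) between treatments passed.

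Cx3cl1 (chr8:94772009-94782427, plus strand), a membrane-bound chemokine that ADAM10 and ADAM17 shed, was nearly absent from paclitaxel TRAP. Its levels there were 0, 0.03, 0.93 and 0.66 CPM, against 8.58, 12.04, 9.18 and 8.72 CPM in the matching inputs. All 4 TRAP values were below all 4 inputs, with a difference of -2.97 ± 0.624 (SE, log2; limma adjusted p = 0.00176). In the normal groups input held 5.01, 12.16, 4.21 and 7.50 CPM, and TRAP held 0.25, 17.56, 2.22 and 2.34 CPM. Biosample 2 alone had more Cx3cl1 in TRAP than in input, and the normal groups overlapped, at -0.95 ± 0.624 (adjusted p = 0.244). Of the tests of a difference between the treatments, that of Cx3cl1 had the lowest p of the 10 genes, at -2.02 ± 0.883 (adjusted p = 0.385).

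Ccl2 (chr11:82035571-82037453, plus strand), a monocyte attractant that injured sensory neurons can produce, was variable in both fractions. Its normal inputs ran from 3.75 to 12.31 CPM and its paclitaxel inputs from 5.34 to 13.46 CPM, which overlapped. Normal TRAP held 15.61, 0.22, 2.17 and 8.87 CPM, while paclitaxel TRAP held 0, 0, 2.54 and 6.81 CPM. TRAP exceeded input in biosamples 1 and 4 and was lower in the other 6. The averaged difference was -1.37 ± 0.492 (SE, log2; limma adjusted p = 0.0246), which passed in 13 of 22 alternatives, and the TRAP difference between treatments was -1.13 ± 1.0 (adjusted p = 0.618).

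Csf1 (chr3:107741048-107760469, minus strand), which acts on macrophages and microglia, was lower in TRAP than in input in all 8 biosamples. Normal input held 9.60, 9.65, 11.53 and 12.19 CPM and normal TRAP 0.15, 2.50, 9.56 and 11.22 CPM. Paclitaxel inputs, at 19.82, 17.62, 28.93 and 19.58 CPM, all lay above the normal inputs. In paclitaxel TRAP the levels were 8.98, 0, 5.53 and 12.39 CPM and overlapped those of normal TRAP. The averaged TRAP difference was -1.66 ± 0.497 (SE, log2; limma adjusted p = 0.00878). The input difference between treatments was 0.92 ± 0.242, or 1.89-fold, and did not pass (adjusted p = 0.068), although it did so without biosample 2 (0.048) or at a threshold of 0.1.

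Il34 (chr8:110741829-110805924, minus strand), the other ligand of CSF1R, was the one gene of the 10 that did not pass between the fractions. Normal input held 32.77, 44.09, 46.97 and 41.96 CPM, and normal TRAP 22.60, 37.13, 33.89 and 40.52 CPM. After paclitaxel input held 43.42, 36.38, 60.04 and 48.35 CPM, and TRAP 64.08, 37.17, 69.11 and 45.20 CPM. The 4 groups overlapped, with TRAP above input in 3 of 8 biosamples. The averaged difference was -0.07 ± 0.212 (SE, log2; limma adjusted p = 0.789), above that of 74.4% of tested genes, and it became 0.30 with median-ratio scaling, 0.24 with quantile normalization and 0.37 with edgeR, passing with none of them. A p that misses the threshold does not show equal levels. Between treatments the TRAP difference was 0.66 ± 0.372 (adjusted p = 0.405). Its gene overlaps the predicted genes Gm15894 and Gm15895 on the other strand.

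Tgfb1 (chr7:25687002-25705077, plus strand), whose product is stored in latent form and released by integrins and thrombospondin, was detected at few reads, 0 to 61 in a library. It ranged from 1.10 to 4.21 CPM in normal input and from 2.45 to 4.29 CPM in paclitaxel input. In normal TRAP it was at 0, 0.04, 0.15 and 7.37 CPM, with 1 library above all inputs, and in paclitaxel TRAP at 0, 0.03, 0.35 and 1.70 CPM. The averaged difference was -1.26 ± 0.405 (SE, log2; limma adjusted p = 0.0136), and with quantile normalization it was 0.02 and did not pass.

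Tlr4 (chr4:66827584-66930284, plus strand) was carried by 6 to 69 reads in the inputs and by 0 to 250 in TRAP. Normal input held 4.8, 3.92, 3.32 and 1.41 CPM and paclitaxel input 4.19, 5.34, 5.95 and 7.50 CPM, ranges that overlapped. Normal TRAP held 12.47, 0.04, 1.34 and 0 CPM, and the first of these, biosample 1, exceeded its input and every other library. Paclitaxel TRAP held 2.69, 0, 0.29 and 3.50 CPM, each below its input. The averaged difference was -1.21 ± 0.439 (SE, log2; limma adjusted p = 0.0261) and passed in 13 of 22 alternatives. Neither the input difference between treatments of 0.68 ± 0.32 (adjusted p = 0.265) nor that in TRAP (adjusted p = 0.954) passed, so that a change of Tlr4 after paclitaxel was not detectable with 4 against 4 biosamples.

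Myd88 (chr9:119335934-119341411, minus strand), the adaptor below TLR4 and the IL-1 family receptors, was detected in both fractions. Inputs ranged from 16.58 to 25.95 CPM in the normal group and from 17.22 to 24.17 CPM after paclitaxel. Normal TRAP held 12.82, 1.71, 10.33 and 18.42 CPM and paclitaxel TRAP 4.98, 10.48, 6.03 and 15.32 CPM. Each pulldown lay below its own input. The averaged difference was -1.25 ± 0.397 (SE, log2; limma adjusted p = 0.0127). Between treatments Myd88 differed by -0.03 ± 0.231 in input and by -0.02 ± 0.847 in TRAP, and neither passed. The TRAP value ran from -0.66 to 0.33 over the alternatives, so that it does not show an absence of change. Its gene overlaps Slc22a14 on the same strand, which was at 0 in all inputs and TRAP libraries of the normal group and at no more than 2.55 CPM after paclitaxel. Acaa1a, a peroxisomal thiolase gene on the other strand, stood at 60.8 ± 9.42 CPM in normal input and 40.3 ± 11.3 CPM in normal TRAP (SD, n = 4), so that the reads of the overlap cannot be told apart without a strand setting.

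Across treatments in TRAP, 0 of the 10 genes passed (limma adjusted p from 0.332 to 0.995), 0 had an unadjusted p under 0.05 and 0 passed with edgeR. There 1.33% of all tested genes were higher and 0.492% lower. That is 189 higher and 70 lower, a split that became 117 and 135 with median-ratio scaling and 193 and 285 with edgeR, and 0 genes passed without biosample 2 or 8, without the filter or without the intensity trend. Of the 10 genes, 5 differed by less than 0.5 on the log2 scale, from -0.36 to 0.19. In input 4 of the 10, Il18, Csf1, Cxcl12 and Il33, had an unadjusted p under 0.05, and the 5 smallest differences lay between -0.03 and 0.45. How many of all tested genes had an unadjusted p under 0.05 was not counted in either fraction. The unadjusted counts therefore set the 10 genes apart from no others. The standard errors in TRAP, from 0.372 for Il34 to 1.12 for Cxcl12, were wider than those in input for each gene, from 0.217 for Il34 to 0.352 for Ccl2.

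**Figure D5:**
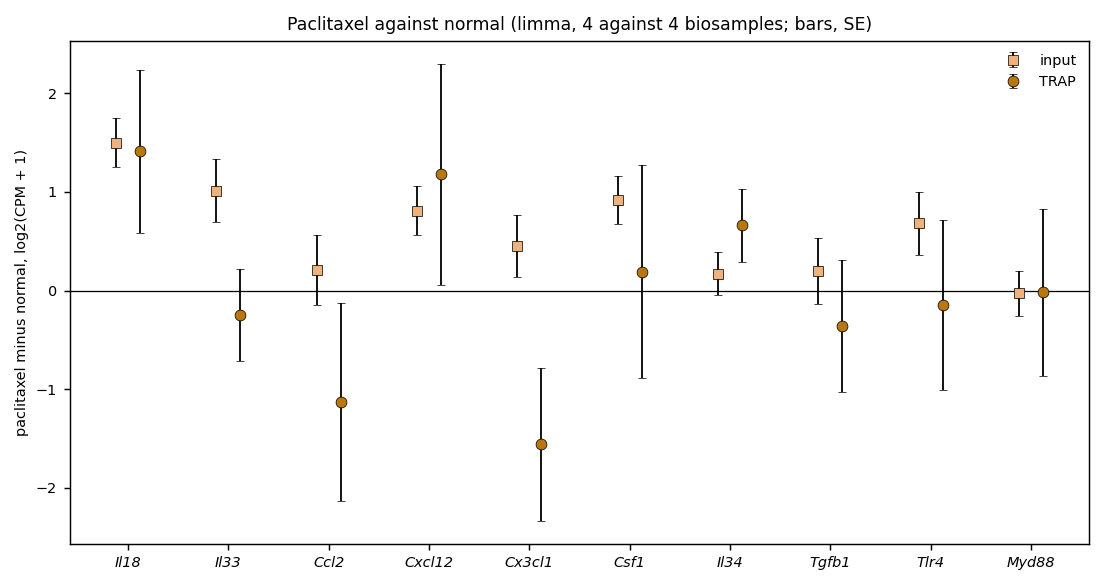
Paclitaxel minus normal on the log2(CPM + 1) scale for each gene in input (squares) and TRAP (circles), with standard errors from limma, 4 biosamples against 4. Il18 in input, at 1.5, is the 1 value that passed, and the TRAP standard errors are wider.

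The receptors of these ligands were mostly lower in the pulldown as well. Of 17 receptor genes 15 were tested, of which 11 were lower and 0 higher in TRAP averaged over treatments, with a median of -1.40. For this and the following lists the background is that 41.6% of all tested genes were lower, with a median of -0.62. A gene could pass the filter through its inputs alone, which in part builds in a lower TRAP value, so that these counts are a description. Of the 15 receptors 10 reached the filter in TRAP libraries alone. The chemokine receptors Ccr2 (-2.75, limma adjusted p = 0.000109) and Cxcr4 (-2.41, adjusted p = 0.000266) and the CXCL12 scavenger Ackr3 (-2.28, adjusted p = 0.00117) were lower, as was Csf1r at -1.40 (adjusted p = 0.00726). Cx3cr1 at -0.57 (adjusted p = 0.208) and Sdc1, a proteoglycan that binds IL-34, at 0.18 (adjusted p = 0.593) did not pass. Csf1r and Cx3cr1 are also macrophage markers in the lists above. Between treatments 0 of the 15 passed with limma in input or in TRAP.

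Genes that process or release these ligands were also mostly lower in TRAP. Of 19, 16 were tested and 11 were lower and 0 higher in TRAP, with a median of -1.20. The TGF-beta activating integrin chain Itgb8 (-3.10, limma adjusted p = 1.32e-07), the TGF-beta activator Thbs1 (-2.75, 1.92e-05) and the sheddases Adam10 (-1.74, 6.57e-06) and Adam17 (-1.15, 0.000802) were lower. Adam17 was the 1 gene of the list to rise in paclitaxel input, by 1.10 ± 0.256 (SE, log2; limma adjusted p = 0.0479), from 38.6 ± 11.6 to 81.7 ± 16.6 CPM (SD, n = 4). Casp1, which cleaves the IL-18 precursor, was at -0.20 in TRAP against input (adjusted p = 0.63; 0.65 with quantile normalization), with 0.0575 ± 0.115 CPM in normal input and 1.67 ± 0.81 CPM in paclitaxel input (SD, n = 4).

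In TLR4 and MyD88 signalling, 23 of 25 genes were tested, and 12 were lower and 0 higher in TRAP, with a median of -0.87. Tab2 (-1.16, limma adjusted p = 1.75e-05) of the TAK1 complex, the kinase Irak1 (-1.27, 0.000703), the NF-kB inhibitor Nfkbia (-0.74, 0.000661) and Lbp (-2.0, 0.000147), which hands lipopolysaccharide to CD14, were lower. Lbp rose in paclitaxel input by 1.26 ± 0.235 (SE, log2; adjusted p = 0.0228), from 28.8 ± 7.56 to 70.2 ± 15.6 CPM (SD, n = 4). The TLR4 co-receptors Cd14 and Ly96 did not pass the filter, with means of 0.495 and 0.477 CPM in normal input. The bridging adaptor Tirap was lower in TRAP (-1.29, adjusted p = 0.015; 0.09 with quantile normalization), and Ticam1, the adaptor of the MyD88-independent arm, was at 0.07 (adjusted p = 0.909). Of 11 other toll-like receptors 5 were tested, and 1 of these reached the filter in TRAP alone. Tlr1, Tlr3, Tlr5 and Tlr12 were lower in TRAP, with Tlr1 at 0.17 and Tlr12 at 0.03 under quantile normalization.

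Most other ligands tested were lower in TRAP, and Mif was higher. Among 33 listed chemokines outside the 10 genes, 18 were tested, of which 5 reached the filter in TRAP alone, and 14 were lower and 0 higher in TRAP, such as Cxcl14 (-1.98, limma adjusted p = 3.43e-05) and Pf4, platelet factor 4 (-2.31, adjusted p = 0.000779). Pf4 rose in paclitaxel input by 1.83 ± 0.361 (SE, log2; adjusted p = 0.0257) and Ccl8, a monocyte attractant, by 1.55 ± 0.346 (adjusted p = 0.0398). Among 39 other cytokines, 17 were tested, of which 9 reached the filter in TRAP alone, 11 were lower and 1, Mif (macrophage migration inhibitory factor), was higher in TRAP, by 1.26 (adjusted p = 2.31e-06). Tnf and Il6 did not pass the filter, at 0.31 and 0.0525 CPM in normal input. Of 7 tested endogenous TLR4 and IL-1 family ligands 6 were lower in TRAP, among them Hmgb1 (-0.43, adjusted p = 0.0253), which edgeR put at 0.01. In TRAP between treatments 0 genes of these 7 lists passed with limma.

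Genes most like each of the 10 were sought over the 16 libraries, which share fraction, depth and complexity as sources of variation. Among 10565 genes with a mean of at least 5 CPM, the one most like Il33 was Sox10, a transcription factor of glia (Pearson r = 0.964, n = 16 libraries). The closest to Il18 was Top2b, a DNA topoisomerase (r = 0.953), and Suv420h1, a histone methyltransferase, stood nearest to both Csf1 (r = 0.96) and Cxcl12 (r = 0.956). Cx3cl1 was most like Slc4a1, the anion exchanger of red cells (r = 0.951), and Cd163, a macrophage scavenger receptor (r = 0.939). For Il34 the highest value was lower, 0.898 with Atp6v0d1, a subunit of the vacuolar proton pump.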

How the data were processed

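The file headers name the deposited values TPM. The deposited values are in fact CPM, scaled by the authors: all columns have 1 common sum, and dividing by each library's smallest step made 98.0% to 99.0% of values above 0 whole reads (tolerance 0.0051 CPM). Tests planned for TPM were applied to them as CPM. Per the submitters' processing notes, FastQC 0.11.5, TopHat2 2.1.1, Bowtie2 2.2.9, Cufflinks 2.2.1 and GRCm38.p4 were used, in an order not given, on GENCODE vM10 genes, per the file headers. Gene coordinates and overlaps came from GENCODE vM21.

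A gene was tested if 4 or more of the 16 libraries reached 1 CPM (14214 of 22021). limma 3.58.1 (R 4.3.3, with an intensity trend) was run on log2(CPM + 1), which understates changes of low genes. TRAP and input of a biosample came from 1 homogenate, so TRAP against input was fitted with biosample as a block; their deviations from the group means correlated at 0.05 to 0.38. Paclitaxel was compared with normal within each fraction. p-values are two-sided and adjusted over all tested genes. edgeR 4.0.16 on recovered reads was an alternative, as were the other settings given at the end. Genes named beside the 10 were those with the lowest p in each list and those that bind or signal with a member, and the 3 genes with the highest correlation to a member. The 10 genes and all lists were chosen with earlier results of these data known. The 2 columns in which the authors merged subsamples served as an alternative. Strand use and molecular identifiers are not given in the sources used here.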

Additional observations from a re-analysis of the deposited data

Results flagged for a closer look

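Within the 40 groups of 4 biosamples (10 genes in 4 groups), 6 had a sample far from the other 3 by Dixon's criterion at 95%, which chance meets in about 1 group in 20. Il33 stood out in normal TRAP at 2.17 CPM (biosample 3) and in paclitaxel TRAP at 1.23 CPM (biosample 8). Cx3cl1 reached 17.56 CPM in normal TRAP of biosample 2, Tgfb1 7.37 CPM in normal TRAP of biosample 4 and Tlr4 12.47 CPM in normal TRAP of biosample 1. Cxcl12 was low in paclitaxel input of biosample 8, at 33.66 CPM. The TRAP values were carried by 13 to 471 reads, and the cause of the gaps was not tested.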

How the results depend on the processing

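The 10 genes have 60 values in 6 comparisons. Treatment differences under 0.5, 14 in all, were set apart by a rule chosen with the values known, and their sign changed in 51 of 296 comparisons with an alternative; Csf1 in TRAP ran from -0.50 to 1.00. Of 998 comparisons of the other 46 values, 881 kept direction and side of the threshold, 95 no longer passed, 9 passed newly and 13 changed sign; no value with a changed sign passed. Alternatives for genes outside the 10 were given for genes picked after their values were seen. The count of genes lower in TRAP averaged over treatments, 9, became 3 with quantile normalization, 5 with biosamples 3, 4, 7 and 8 only and 4 with edgeR, while all genes called lower went from 5907 to 2470, 3441 and 2234. In normal biosamples the count of 3 became 1 with quantile normalization, 1 with biosamples 3, 4, 7 and 8 only and 0 with edgeR (all genes, from 3509 to 1388, 1891 and 612), and lay between 1 and 4 with 1 biosample left out. After paclitaxel the count of 7 became 4 with a pseudocount of 0.1, median-ratio scaling or no intensity trend, 3 without the filter or with quantile normalization, 2 with biosamples 3, 4, 7 and 8 only or with edgeR, and 2 to 8 with 1 biosample left out. All genes called lower after paclitaxel went from 3264 to 3033, 1952 and 2545, to 2852 and 1492, and to 1449 and 767 in the same order. Without the replicate block, which pairs TRAP with input, it was 4, and 2688 of all genes. In paclitaxel input the 1 higher gene became 0 without the filter or with biosamples 3, 4, 7 and 8 only, 2 at a threshold of 0.1, and 0 to 2 with 1 biosample left out. In the 7 lists around the 10 genes edgeR also called fewer genes lower, for example 8 of 15 receptors and 5 of 23 TLR4 and MyD88 signalling genes. The causes were not tested.

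Signs changed for TRAP against input in normal biosamples with quantile normalization for Ccl2 (0.22), Cx3cl1 (0.046), Tgfb1 (0.057), Il34 (0.066) and Tlr4 (0.20), for Il34 also with median-ratio scaling (0.11) and edgeR (0.19), and for Ccl2 without biosample 2 (0.002, the other end of its leave-one-out range being -1.29). Averaged over treatments, signs changed for Tgfb1 (0.022), Casp1 (0.65), Tirap (0.089), Tlr1 (0.17) and Tlr12 (0.03) with quantile normalization, for Il34 with median-ratio scaling (0.30), quantile normalization (0.24) and edgeR (0.37), for Hmgb1 with edgeR (0.014), and for Ticam1 without biosample 4 (-0.13), 7 (-0.07) or 8 (-0.10). The difference between treatments of Tgfb1 lay between -0.98 and 0.29 with 1 biosample left out, the latter without biosample 4.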
